A study of Homo sapiens with 14 samples.

Results

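The values below concern 53 nuclear genes that code for subunits of complexes I to IV of the mitochondrial respiratory chain. Complex I is represented by 31 of these genes, complex II by 4, complex III by 7 and complex IV by 11. The genes were chosen by name, and a probe was counted for a gene when the accession printed for the probe mapped to it. All 53 genes had a probe, out of 20992 genes with a named probe on the array. They held 68 of its 50599 probes, of which 29033 carried a gene name. NDUFA4, which was named as a complex I protein, is counted here with complex IV, where it is now placed.

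The respiratory chain passes electrons from NADH and succinate to oxygen and pumps protons across the inner mitochondrial membrane. Complex I takes electrons from NADH in its matrix arm and pumps protons in its membrane arm, complex II oxidizes succinate of the citric acid cycle, complex III hands electrons from ubiquinol to cytochrome c, and complex IV reduces oxygen. Some core subunits of complexes I, III and IV are coded by mitochondrial DNA and are not among the members, and glioblastoma cells combine this respiration with strong glycolysis.

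A172 and U87 (U87-MG) are established human glioblastoma cell lines. By electroporation, cells received 20 pmol/ml of a negative control siRNA without a target RNA or of an siRNA to exon 1 of the noncoding RNA LINC00152 (siLINC00152), and the labels give 40 h in culture before total RNA was taken. The paper states a longer time. There were 3 control and 3 siLINC00152 arrays of A172 and 4 of each of U87, 14 one-colour Agilent arrays in all, and arrays with the same set number form a replicate pair. A single siRNA to the target was used, so its effect and that of the target's loss cannot be told apart. Of the glioma markers, VIM, NES and CD44 were well above background on all arrays of both lines. SOX2 was well above background on all 6 A172 arrays and on 0 of the 8 U87 arrays, while the astrocyte markers GFAP and S100B were too dim to be tested in either line.

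All levels are log2 processed signal minus the 75th percentile of the array, so that 0 is the brightness of that percentile and a difference of 1 is a doubling. The U87 arrays were dimmer, with a 75th percentile of 33.0 to 69.0 intensity units against 131 to 284 in A172. The control array of U87 set 3 stood apart as the dimmest, with a 75th percentile of 33.0, 35.7% of its spots well above background and 54 of the 68 member probes well above background. The siLINC00152 array of the same set followed with 42.6, 40.4% and 60 member probes, whereas 63 to 64 member probes were well above background on the other U87 arrays and 63 to 66 on the A172 arrays. Medians, pair counts and fold changes of members in U87 are therefore also given without set 3, as the mean log2 ratio of the other sets, while tests without it are in the closing section, and the part of array brightness in them was not tested. The A172 arrays lay on 3 slides, one for each set, and all U87 arrays on a slide of their own, so for levels the line and the slide cannot be told apart. With 3 or 4 arrays in a group, small differences are poorly resolved.

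The label of the knockdown was checked on the target itself. The LINC00152 (CYTOR) probe A_24_P273143 read 2.63, 2.44 and 2.48 on the control arrays of A172 sets 1 to 3 and 0.23, -0.42 and -0.10 on the siLINC00152 arrays. In U87 the control arrays of sets 1 to 4 read 1.94, 1.83, 1.71 and 1.82 and the siLINC00152 arrays -1.21, -0.88, -0.74 and -0.79. Every siLINC00152 array lay below every control array of its line. The log2 fold change was -2.61 in A172 (SE 0.24, adjusted p = 0.000731), which leaves 16.3%, and -2.73 in U87 (SE 0.21, adjusted p = 4.96e-05), which leaves 15.1%. For MIR4435-2HG, the near-identical copy of the locus, 3 probes gave -2.44, -1.53 and -0.31 in A172 and -2.97, -2.08 and -0.31 in U87, so the loss was not seen at each of its probes.

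No respiratory chain subunit passed the test in either line. Of the 68 member probes, 64 were bright enough to be tested in each line and they covered all 53 genes. With limma, a probe was called when its adjusted p was under 0.2 and its log2 fold change exceeded 0.5 in size. By this rule 0 of 64 member probes were called in A172, where 0.184% of all tested probes were called, and 0 of 64 in U87, where the share was 0.0502%. At an unadjusted p under 0.05 there were also 0 member probes in A172, against 2.28% of all probes, and 0 in U87, against 2.3%. With the replicate block, which fits the set number as a term of the model, 0 member probes were called in A172 (3.26% of all probes) and 0 in U87 (4.18%). At an unadjusted p under 0.05 with the block, 8 of 64 member probes lay above control in A172, where this held for 4.93% of all probes, and 12 of 64 in U87, where it held for 9.14%. None lay below control at that level in either line, where the shares of all probes were 5.76% in A172 and 7.7% in U87. A p that misses the threshold does not show that these genes did not differ, and in RNA from whole cultures fewer cells with a transcript and less of it per cell cannot be told apart.

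A gene is given here by the tested probe with the highest mean signal over both lines. For SDHC in A172 another probe is brighter and lies on the other side of 0, so its direction there depends on the probe, as does that of NDUFB6, an accessory subunit of complex I, in U87 (0.045 and -0.099, or -0.15 and -0.19 without set 3). The fitted log2 fold change was above 0 for 46 of the 53 members in A172, against 55.9% of all genes, and for 49 of 53 in U87, against 52.5%. Without set 3 the mean ratio in U87 was above 0 for 41 of 53 members, against 51.9% of all genes, and by complex for 26 of 31 in complex I, 4 of 4 in complex II, 5 of 7 in complex III and 6 of 11 in complex IV. The fitted value was above 0 in both lines for 43 of 53 members, against 33.3% of all genes tested in both. The median log2 fold change of the members was 0.19 in A172 (0.099 without the siLINC00152 array of set 2) and 0.16 in U87 (0.10 without set 3). Over all tested probes the median was 0.02 in A172 and -0.02 in U87, and over the brightest 25% of probes, to which 45 members belong in A172 and 39 in U87, it was 0.05 and 0.01. The median SE of a single member was 0.29 in A172 and 0.25 in U87, and 0.14 and 0.12 with the replicate block.

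By set, 33, 47 and 45 of 53 members lay above their control in A172 sets 1 to 3 (62.3%, 88.7% and 84.9%, against 54.7%, 52.5% and 51.1% of all genes). In U87 sets 1 to 4 the counts were 45, 31, 51 and 39 (84.9%, 58.5%, 96.2% and 73.6%, against 53.0%, 52.5%, 52.5% and 52.5%). The shares thus lay nearest to those of all genes in A172 set 1 and U87 set 2. Over the brightest tested probes, the part named above to which most members belong, the shares were 64.3%, 57.8% and 48.1% in A172 sets 1 to 3. In U87 sets 1 to 4 they were 53.89%, 51.35%, 51.02% and 55.73%. The share of the members was below that of the brightest probes in A172 set 1 and above it in every other set. No test of the shares was made.

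Pair by pair, 27 of 53 members lay above their control in all 3 sets of A172, which was the case for 22.3% of all genes, and 0 lay below it in all 3 sets, against 17.6% of all genes. Without A172 set 1 the number above control was 41, counted over fewer pairs. In U87, 25 of 53 members lay above their control in all 4 sets (20.6% of all genes) and 0 lay below it in all 4 (13% of all genes). Without U87 set 3, 27 members lay above their control in the remaining sets, against 26.9% of all genes. In all 7 pairs of both lines, 16 members lay above their control, against 9.51% of all genes, and without U87 set 3 the number was again 16, against 11.1%. The 16 genes, named after their values were seen, are the core subunits NDUFV1, NDUFS3, NDUFS7 and NDUFS8 of the matrix arm of complex I, its accessory subunits NDUFS5, NDUFS6, NDUFA8, NDUFA9, NDUFB2, NDUFB5, NDUFB9 and NDUFB10, the complex III subunits CYC1 and UQCRC2, and the complex IV subunits COX6B1 and COX8A. None belongs to complex II.

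**Figure D1:**
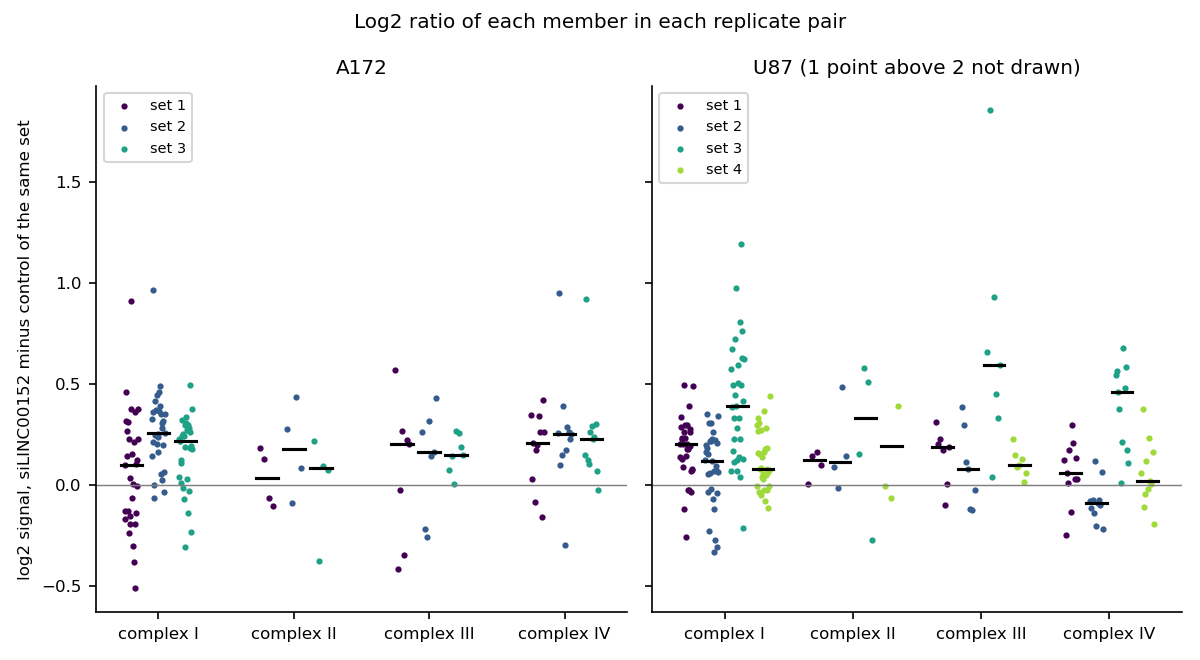
Each point is a member, placed by the log2 signal of the siLINC00152 array minus that of the control array of the same set (y axis, log2), for each complex (x axis), set (colour) and line (panel), with the median as a black bar. The complex IV medians lie between 0.21 and 0.25 in A172 and between -0.088 and 0.46 in U87, where set 3 is the highest.

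The medians of the complexes varied over the sets, and how evenly they held was not tested. For complex I the median log2 ratio was 0.10, 0.26 and 0.22 in A172 sets 1 to 3 and 0.20, 0.12, 0.39 and 0.082 in U87 sets 1 to 4. The complex II medians were 0.035, 0.18 and 0.086 in A172 and 0.12, 0.12, 0.33 and 0.20 in U87. For complex III they were 0.20, 0.16 and 0.15 in A172 and 0.19, 0.079, 0.60 and 0.10 in U87. Every one of these medians was above 0, and set 3 was the highest of the U87 sets in each complex. Complex IV read 0.21, 0.25 and 0.23 in A172, whereas in U87 it read 0.061, -0.088, 0.46 and 0.023, so its median there was below 0 in set 2. Over all tested probes the medians were 0.043, 0.0030 and -0.0031 in A172 and -0.00087, 0.0054, -0.066 and 0.010 in U87. Over the brightest tested probes they were 0.109, 0.030 and -0.0081 in A172 and 0.020, 0.0075, 0.014 and 0.024 in U87. In A172 set 1 the medians of complexes I and II were thus below that of the brightest probes. So was the median of complex IV in U87 sets 2 and 4. The other medians of the complexes were above it.

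Promoter sequences are shown for 3 of the genes that lay above control in all 7 pairs, as examples of members on the same side in every pair that carry a motif of a factor known to bind promoters of respiratory chain genes. They are the 250 bases before the transcription start from RefSeq (GRCh38.p14), for NDUFS3 at chr11:47578824-47579073 (+ strand), for NDUFA9 at chr12:4648864-4649113 (+ strand) and for COX8A at chr11:63974370-63974619 (+ strand). Capitals mark the ETS letters CCGGAAG in NDUFS3 and COX8A and the NRF1 letters GCGCANGCG in NDUFA9, each on either strand. A promoter was listed for 46 members, with NDUFA4 under the name COXFA4, and there was no entry for NDUFS5, NDUFB5, NDUFB9, SDHC, CYC1, UQCRB and COX6C.

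NDUFS3: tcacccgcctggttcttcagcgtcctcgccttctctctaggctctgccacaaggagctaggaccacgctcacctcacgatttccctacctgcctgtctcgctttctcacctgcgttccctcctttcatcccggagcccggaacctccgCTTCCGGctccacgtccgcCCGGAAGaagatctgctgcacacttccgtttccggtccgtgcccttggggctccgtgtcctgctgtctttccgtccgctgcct

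NDUFA9: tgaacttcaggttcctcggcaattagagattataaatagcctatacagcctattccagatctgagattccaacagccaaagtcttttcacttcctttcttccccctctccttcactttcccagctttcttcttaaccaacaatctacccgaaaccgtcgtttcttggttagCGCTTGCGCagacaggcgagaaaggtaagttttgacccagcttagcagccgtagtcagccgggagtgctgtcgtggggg

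COX8A: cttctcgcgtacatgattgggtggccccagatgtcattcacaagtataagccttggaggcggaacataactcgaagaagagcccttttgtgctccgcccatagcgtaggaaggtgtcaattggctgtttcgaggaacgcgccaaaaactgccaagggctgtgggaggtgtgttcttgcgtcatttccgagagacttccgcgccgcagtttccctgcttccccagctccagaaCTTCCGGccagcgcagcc

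The NRF1 letters were shortened by a final C after the counts of the longer form had been seen, and the shorter form is the more frequent in both sets. With the longer form, 9 of the 46 members (19.6%) matched, against 5.53% of all promoters. With the shorter form, in the same window, 12 of the 46 members (26.1%) held the NRF1 letters, against 7.02% of all 27305 promoters, and 13 (28.3%) held the ETS letters, against 8.82%. Among the 16 genes above control in all pairs, 12 had a listed promoter, and 3 of these held the NRF1 letters (1 in the longer form) and 3 the ETS letters. The shortening was made so that the letters could be printed here. A match describes the letters only and shows no bound factor.

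Complex I gave 27 of 31 fitted log2 fold changes above 0 in A172 and 29 of 31 in U87, with medians of 0.20 and 0.21 (0.14 without set 3). Within it, the median of the 6 core subunits of the matrix arm, which carry the flavin and the iron-sulfur clusters, was 0.15 in A172 and 0.24 in U87. The 8 accessory subunits of the matrix arm gave 0.15 and 0.20, the 7 accessory subunits of the proximal membrane arm 0.26 and 0.11, and the 10 of the distal membrane arm 0.16 and 0.17. Without set 3 the U87 medians of these groups, in the same order, were 0.22, 0.15, 0.061 and 0.095. All 6 core subunits had a fitted value above 0 in both lines, and 5 of them lay above control in every U87 set.

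NDUFS3, a core subunit of the matrix arm, had the highest value of complex I in A172. It read 2.95, 2.60 and 2.75 on the A172 controls and 3.26, 3.57 and 2.96 on the siLINC00152 arrays. All siLINC00152 arrays were above all controls, and set 2 had the widest gap. The log2 fold change was 0.50 (SE 0.32, adjusted p = 1.00, n = 3). In U87 the controls read 3.46, 3.70, 2.56 and 3.27 and the siLINC00152 arrays 3.80, 4.05, 3.24 and 3.60. The groups overlapped there, with and without set 3, yet each knockdown array lay above its own control. The log2 fold change was 0.43 (SE 0.27, n = 4) and 0.34 without set 3.

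NDUFB10, an accessory subunit of the membrane arm, had the highest value of complex I in U87. Its U87 controls read 2.20, 2.46, 1.44 and 1.81 and its siLINC00152 arrays 2.70, 2.80, 2.06 and 2.26. Each pair had a gap between 0.34 and 0.62 although the sets lay far apart, and the groups overlapped. Together they gave a log2 fold change of 0.48 (SE 0.29, adjusted p = 1.00, n = 4) and 0.43 without set 3. In A172 the controls read 2.58, 3.10 and 2.38 and the siLINC00152 arrays 2.82, 3.46 and 2.76, which gave 0.32 (SE 0.33, n = 3) with overlapping groups. At the other end of the genes above control in every set were NDUFS8, a core subunit with iron-sulfur clusters, and NDUFB9, an accessory subunit of the membrane arm. For NDUFS8 the fitted value was 0.13 in A172 (SE 0.26) and 0.30 in U87 (SE 0.23), or 0.23 without set 3. For NDUFB9 it was 0.27 in A172 (SE 0.30) and 0.087 in U87 (SE 0.26), or 0.072 without set 3.

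Groups that do not overlap were rare among the members, as they were among all genes. The siLINC00152 arrays were all above the control arrays for 4 of 53 members in A172, against 4.14% of all genes, and for 1 of 53 in U87, against 2.33%. The A172 genes are NDUFV1, which binds NADH, NDUFS3, the accessory subunit NDUFS6, and COX7B of complex IV. COX7B read 1.86, 1.97 and 1.93 on the A172 controls and 2.12, 2.26 and 2.17 on the siLINC00152 arrays. Its sets hardly differed, and the siRNA took 87.4% of its sum of squares in A172. The U87 gene is NDUFA10, an accessory subunit of complex I, which read 1.54, 1.39, 1.21 and 1.47 on controls and 1.72, 1.65, 1.71 and 1.83 on siLINC00152 arrays. Its log2 fold change was 0.33 (SE 0.19, adjusted p = 1.00, n = 4), or 0.27 without set 3, and a second NDUFA10 probe gave 0.15 and -0.067. Without U87 set 3 the number was 4 of 53 (NDUFA10, NDUFA12, NDUFB5 and UQCRFS1), against 7.81% of all genes. These genes were named after their values were seen.

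With the replicate block, 5 member probes of U87 passed an FDR of 0.2 and lay above control but missed the fold threshold, where 4.05% of all probes passed in that direction. They are probes of NDUFB10 (log2 fold change 0.48, adjusted p = 0.0902), a second probe of NDUFB5 (0.50, adjusted p = 0.136), NDUFB2 (0.43, adjusted p = 0.162), SDHC (0.39, adjusted p = 0.187) and CYC1 (0.40, adjusted p = 0.190). Without set 3 these values were 0.43, 0.59, 0.30, 0.35 and 0.31, and the NDUFB5 probe was then called with the block (adjusted p = 0.125). In A172 the smallest adjusted p of a member with the block was 0.292, for NDUFS3, which was called when U87 set 3 was left out (0.199). The blocked fit assumes that the sets differ by the same amount under both siRNAs.

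Complex II is coded by nuclear genes alone. SDHA, the flavoprotein that oxidizes succinate, read 2.97, 2.73 and 2.64 on the A172 controls and 3.15, 3.01 and 2.86 on the siLINC00152 arrays. Each knockdown array was above its control by a similar amount, while the groups overlapped, and the log2 fold change was 0.23 (SE 0.21, adjusted p = 1.00, n = 3). The 3 other SDHA probes gave 0.20, 0.16 and 0.0015 in A172, the last with 2 of 3 pairs below 0. In U87 SDHA was the most even member of the complex, with 3.43, 3.36, 3.34 and 3.48 on controls and 3.43, 3.45, 3.49 and 3.48 on siLINC00152 arrays. Its log2 fold change there was 0.062 (SE 0.18, n = 4) and 0.032 without set 3, and the other probes gave 0.15, 0.11 and 0.11, or 0.085, 0.057 and -0.0063 without set 3.

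SDHB, which carries the iron-sulfur clusters, read 0.95, 1.596 and 1.00 on the A172 controls and 1.08, 1.51 and 0.62 on the siLINC00152 arrays, so 2 of 3 pairs were below 0. Its log2 fold change was -0.11 in A172 (SE 0.52), where it turned to 0.023 without set 3. In U87 the controls read 3.09, 3.26, 1.30 and 3.37 and the siLINC00152 arrays 3.23, 3.25, 1.88 and 3.31. Both arrays of set 3 lay far below the rest, and the gap was 0.15 in set 1 and near 0 in sets 2 and 4. In U87 its fitted value of 0.16 (SE 0.45) was 0.024 without set 3 and -0.32 without the control array of that set alone.

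The membrane anchors SDHC and SDHD hold the ubiquinone site. SDHC read 1.28, 0.75, 1.49 and 0.81 on the U87 controls and 1.45, 1.24, 2.00 and 1.20 on the siLINC00152 arrays, above its control in every set with overlapping groups. Its fitted value was 0.39 (SE 0.25, adjusted p = 1.00, n = 4) and 0.35 without set 3, while in A172 it was 0.16 (SE 0.29). Another SDHC probe gave 0.71 in U87 (SE 0.65), or 0.23 without set 3, and -0.10 in A172 (SE 0.75). SDHD had the highest fitted value of any member in U87, 1.56 (SE 0.99, adjusted p = 1.00, n = 4), but a single array decides it. Its controls read 1.35, 1.51, 1.30 and -4.57 and its siLINC00152 arrays 1.45, 1.66, 1.03 and 1.71. The control of set 4 was not well above background, and the log2 fold change was -0.0087 without that set and 2.18 without set 3. The 2 other SDHD probes gave 0.28 and 0.13 in U87, or 0.050 and 0.29 without set 3, and the first probe gave 0.019 in A172 (SE 1.15). The complex II median was 0.088 in A172 (0.0013 without set 2 and -0.044 without its siLINC00152 array alone) and 0.28 in U87 (0.19 without set 3 and 0.16 without set 4).

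Complex III gave 5 of 7 fitted log2 fold changes above 0 in A172 and 7 of 7 in U87, with medians of 0.19 and 0.21. The A172 median was 0.11 without the control array of set 3 and 0.26 without the siLINC00152 array of that set. The U87 median was 0.12 without set 3, and it was -0.058 without the control of that set alone and 0.46 without its siLINC00152 array alone. CYC1, the cytochrome c1 subunit, had the highest value in A172, with 2.88, 3.38 and 2.75 on controls and 3.45, 3.64 and 2.82 on siLINC00152 arrays. The gap was widest in set 1 and small in set 3, and the groups overlapped, with a log2 fold change of 0.30 (SE 0.32, adjusted p = 1.00, n = 3). In U87 CYC1 read 4.91, 5.03, 4.10 and 4.64 on controls and 5.22, 5.42, 4.76 and 4.87 on siLINC00152 arrays, which gave 0.40 (SE 0.28, n = 4) and 0.31 without set 3. UQCRH, the hinge protein, had 0.19 in A172 (SE 0.23) with all 3 pairs above 0, and 0.060 in U87 (SE 0.20), which was -0.032 without set 3, while its other probe gave 0.13 in A172 and 0.33 in U87, or -0.043 without set 3.

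UQCRFS1, the Rieske iron-sulfur protein, had the highest U87 value of complex III, which turned on set 3. Its U87 controls read 0.23, 0.37, -2.89 and 0.41 and its siLINC00152 arrays 0.43, 0.66, -1.03 and 0.56. Both set 3 arrays lay far below the others, and the control of that set was not well above background, so the size of its gap is uncertain. The log2 fold change of 0.63 (SE 0.64, adjusted p = 1.00, n = 4) was 0.22 without set 3 and -0.18 without the control of that set alone. In A172 it was -0.16 (SE 0.73), with 2 of 3 pairs below 0, and 0.13 without the control array of set 1. UQCRC1, a core protein related to mitochondrial processing peptidases, had -0.090 in A172 (SE 0.26) and 0.12 in U87 (SE 0.22), where all 4 pairs were above 0, or 0.15 without set 3. Its A172 value was 0.095 without the control array of set 2 and 0.057 without the siLINC00152 array of set 3.

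Complex IV had the highest median of the complexes in A172 and the lowest in U87. All 11 fitted log2 fold changes were above 0 in A172 and 9 of 11 in U87, with medians of 0.24 and 0.13, and without set 3 the U87 median was 0.0060. Its rank in A172 depends on the arrays kept. Without the siLINC00152 array of set 2 its median was 0.072 and that of complex III 0.13. Without A172 set 1 the complex IV median was 0.20, below that of complex I. In set 2 of U87 only 2 of 11 members lay above their control, and in set 3 all 11 did. Above control in every set were 7 of 11 members in A172 and 2 of 11 in U87, namely COX6B1 and COX8A. No test of the difference between these shares was made.

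COX8A, a small subunit of the oxidase, read 1.39, 2.03 and 1.63 on the A172 controls and 1.81, 2.26 and 1.70 on the siLINC00152 arrays. In U87 it read 1.96, 2.05, 1.84 and 1.58 on controls and 2.10, 2.12, 2.01 and 1.74 on siLINC00152 arrays. The groups overlapped in both lines, and every pair was above 0. Fitted values were 0.24 in A172 (SE 0.26) and 0.14 in U87 (SE 0.22), or 0.12 without set 3. COX6B1, which lies on the side where cytochrome c docks, had 0.28 in A172 (SE 0.28) and 0.11 in U87 (SE 0.25), or 0.14 without set 3. COX5B, a zinc-binding subunit on the matrix side, had the lowest value of the complex IV members above control in all A172 sets, 0.15 (SE 0.37), which was -0.067 without the siLINC00152 array of set 2, and 0.086 in U87 (SE 0.32), which was -0.039 without set 3.

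COX5A, another subunit on the matrix side, had the highest fitted value of all members in A172, from a dim probe. It read -2.62, -3.49 and -2.29 on the A172 controls, where that of set 2 was not well above background, and -2.59, -2.54 and -1.37 on the siLINC00152 arrays. Set 1 showed almost no gap, sets 2 and 3 showed gaps of 0.95 and 0.92, and the groups overlapped. This gave a log2 fold change of 0.64 (SE 0.39, adjusted p = 1.00, n = 3). In U87 it was 0.15 (SE 0.34, n = 4), with 2 of 4 pairs above 0, and 0.0060 without set 3.

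**Figure D2:**
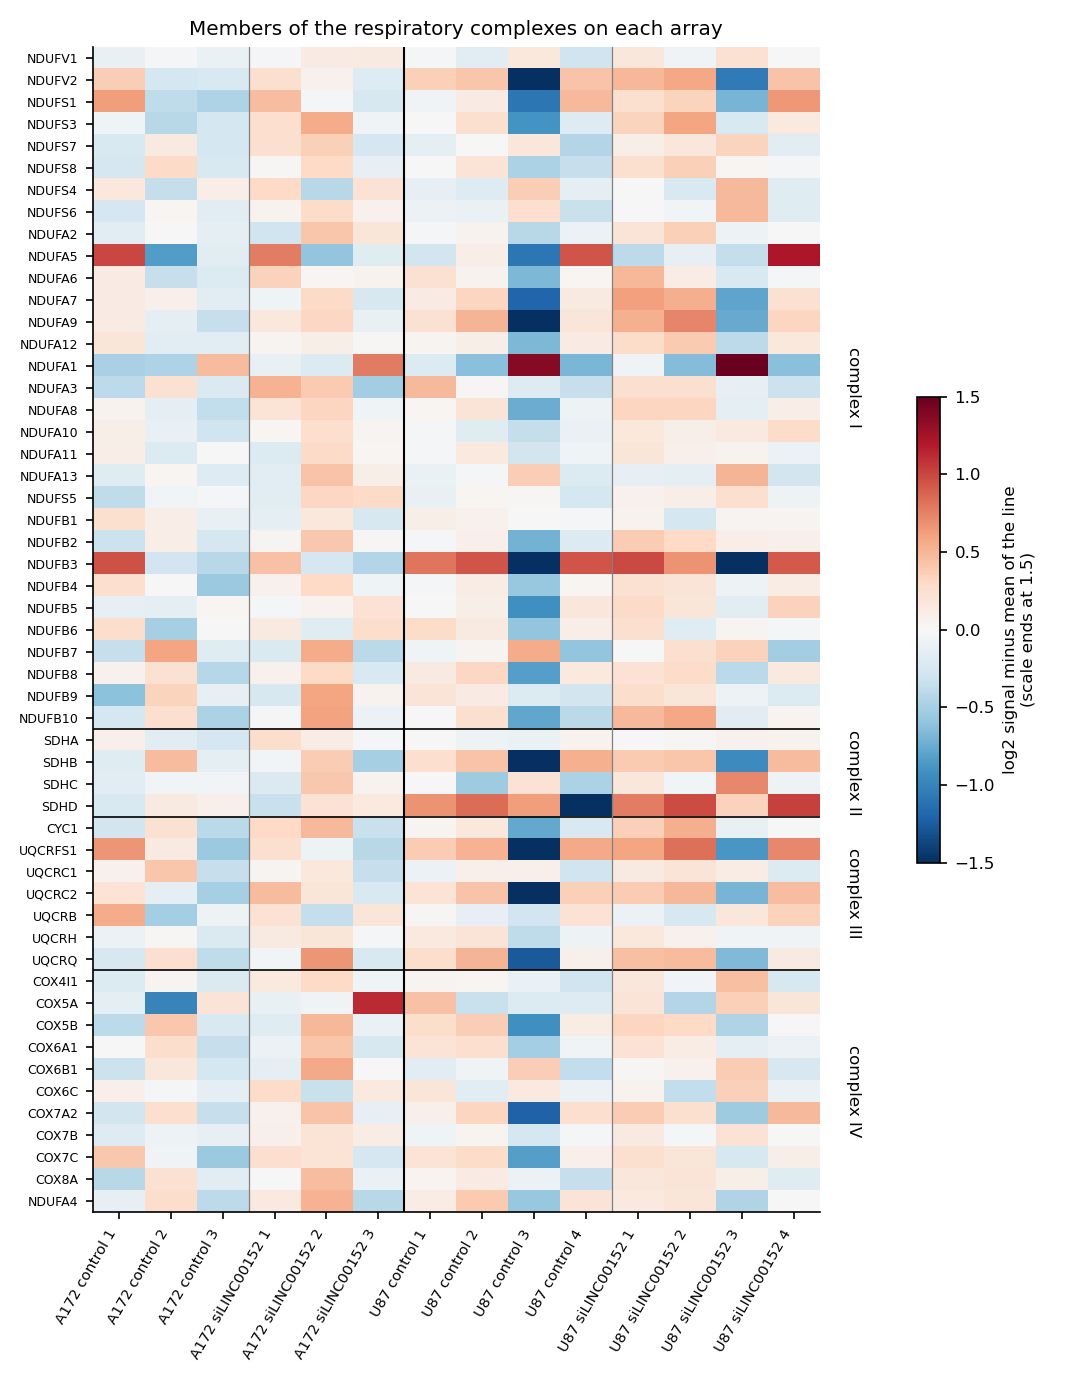
Each row is a member, ordered by complex, each column an array, and the colour is log2 signal minus the mean of the member over the arrays of that line, drawn up to 1.5 in size. NDUFB3, UQCRFS1 and NDUFV2 are blue in both set 3 columns of U87, where NDUFA1 is red, and SDHD, which reads -4.57 there, is blue on the control array of U87 set 4.

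The sets differed more than the siRNAs did. The siRNA took a median of 13.7% of a member's sum of squares in A172 and the set 75.2%, and in U87 the shares were 6.91% and 82.0%. Over all tested probes the siRNA took 4.64% in A172 and 4.56% in U87, and the set 81.6% and 82.0%. For 48 of 53 members in A172 and 51 of 53 in U87, the range of the set means was wider than the absolute log2 fold change, which held for 88.9% and 95.6% of all genes. There are more sets than siRNAs, so random spread alone would also tend to give the sets the larger share and the wider range. The median range over sets was 0.52 in A172 and 0.70 in U87, below that of all genes, 0.67 and 0.88.

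In A172 the members were lowest in set 3 for 30 of 53 genes (56.6%), against 26.3% of all genes, and highest in set 2 for 31, against 6982 of 14690 genes. The median deviation from a member's mean in A172 was -0.12, 0.0094 and -0.22 on the control arrays of sets 1 to 3 and 0.057, 0.29 and -0.065 on the siLINC00152 arrays. Over all tested probes it was -0.17, 0.16 and 0.027 on the controls and -0.055, 0.15 and 0.0099 on the siLINC00152 arrays. In complex III all 7 members were under their mean on the control array of set 3. NDUFA5, an accessory subunit of the matrix arm, had the widest range over A172 sets, 1.59, with controls at -0.64, -2.48 and -1.80 and siLINC00152 arrays at -0.87, -2.22 and -1.81. Its arrays of a set lay close together, and its log2 fold change was 0.0012 (SE 0.59).

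**Figure D3:**
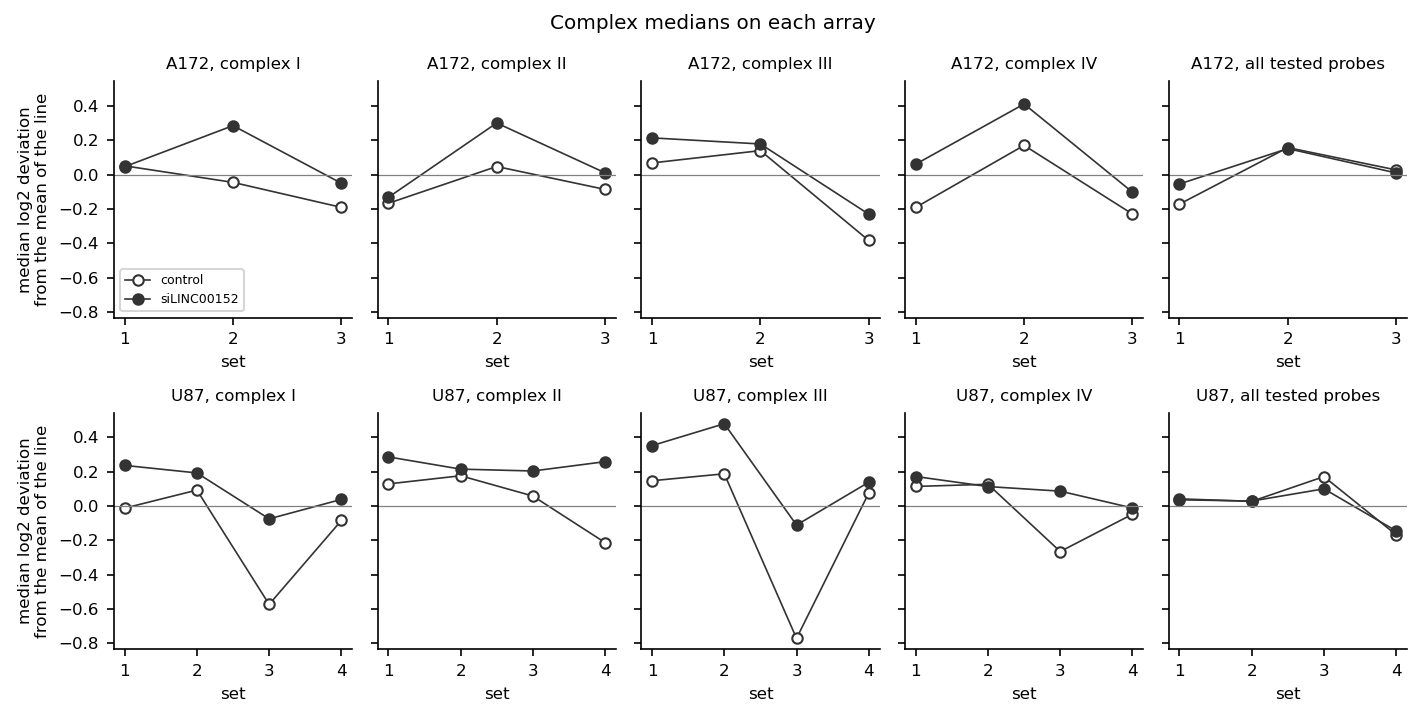
Points are medians over the members of a complex, or over all tested probes, of the log2 deviation from each probe's mean in the line (y axis), by set (x axis), with open points for control and filled points for siLINC00152 arrays. Complex III lies at -0.77 on the control array of U87 set 3, where all tested probes lie at 0.17.

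In U87 the members were lowest in set 3 for 32 of 53 genes (60.4%), against 38.2% of all genes. Their median deviation was -0.47 on the control array of set 3 and -0.073 on its siLINC00152 array, whereas over all tested probes it was 0.17 and 0.10. By complex, the control array of set 3 stood at -0.57 for complex I, 0.059 for complex II, -0.77 for complex III and -0.26 for complex IV. The deficit was thus smaller on the siLINC00152 array of that set, and the median log2 ratio of all members in set 3 was 0.45, against 0.18, 0.070 and 0.082 in sets 1, 2 and 4. These 2 arrays are also the dimmest, and the part of brightness in the ratio was not tested.

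Members differed widely in set 3 of U87, and the genes named here, like NDUFA5 and NDUFA3, were chosen after their values were seen. NDUFB3, an accessory subunit of the membrane arm, read 2.02, 2.17, -2.01 and 2.17 on controls and 2.22, 1.90, -0.82 and 2.15 on siLINC00152 arrays. Its set 3 control was not well above background, so the size of its gap to the other controls is uncertain, and 2 of 4 pairs were above 0. The siLINC00152 array of set 3, which was well above background, lay 2.91 below the mean of the others. NDUFA1, a small membrane arm subunit, lay the other way, at 4.04 and 4.17 in set 3 and between 2.00 and 2.62 on the other U87 arrays. The siRNA took 0.208% of its sum of squares in U87 and the set 99.7%.

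**Figure D4:**
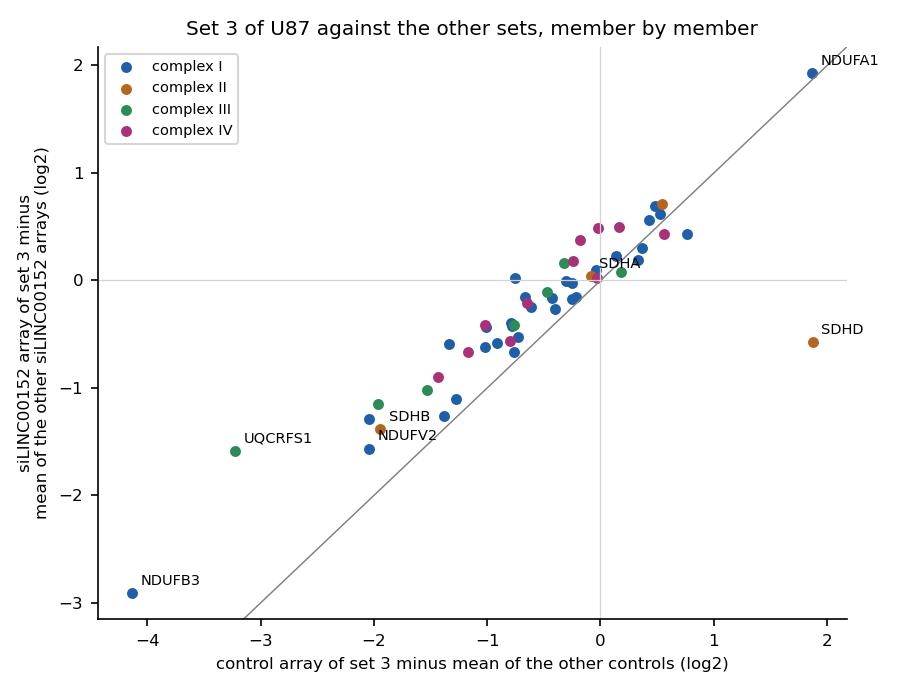
Each point is a member, placed by how far the control array of U87 set 3 (x axis) and the siLINC00152 array of set 3 (y axis) lay from the mean of the other arrays of the same siRNA, in log2. Most points lie above the grey line of equal values, NDUFA1 lies near it at 1.87 and 1.93, and SDHD, whose control of set 4 is not well above background, lies at 1.87 and -0.58.

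No member passed the test for a difference of the response between the lines. In the test of the difference, A172 minus U87, 0 of 64 member probes were called with limma, against 0.00945% of all probes tested in both lines, and 0 at an unadjusted p under 0.05, against 0.784%. With the replicate block 0 were called (0.421% of all probes), and 0 had an unadjusted p under 0.05 (8.3%). The fitted differences of the members ranged from -1.54 for SDHD (SE 1.52) and -0.79 for UQCRFS1 (SE 0.97) to 0.49 for COX5A (SE 0.52). Each of these 3 genes has a control that was not well above background, so the sizes are uncertain.

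Control levels of the members also differed between the lines, which here cannot be told apart from the slides. The A172 controls all lay above the U87 controls for 5 of 53 members, against 13.9% of all genes, and all below them for 19, against 25.3%. The median of A172 minus U87 was -0.32 over the members and -0.18 over all genes. NDUFA3, an accessory subunit of the membrane arm, had the largest difference, with a control mean of 7.12 in A172 and 3.81 in U87. In the other direction NDUFA1 had the largest difference, 0.51 against 2.64, with the U87 control of set 3 at 4.04. CYC1 followed with 3.00 against 4.67.

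Other gene lists of the pathway are set beside the medians of all genes, 0.029 in A172 and 0.017 in U87 (0.0093 without set 3). The 18 ATP synthase genes, which code for the complex that uses the proton gradient, had medians of 0.17 in A172 and 0.18 in U87 (0.14 without set 3). The assembly factors, which build the complexes, gave 0.030 over 38 tested genes in A172, close to that of all genes, and 0.10 over 36 in U87 (0.046 without set 3). Further subunits and isoforms outside the member list gave 0.15 over 16 genes and 0.27 over 13 (0.16 without set 3). With limma 0 genes of these lists were called in either line. At an unadjusted p under 0.05 there was 1 ATP synthase gene above control in U87, ATP5MC3, and 1 assembly factor below control in A172, against 2.28% of all probes in A172 and 2.3% in U87. With the replicate block, which called 4.18% of all probes in U87, the calls were ATP5F1B (0.54, adjusted p = 0.119) and ATP5MC3 (0.51, adjusted p = 0.154) of the ATP synthase and the heme A synthase COX15 (0.79, adjusted p = 0.172), all in U87 and above control, with 0.40, 0.35 and 0.78 without set 3.

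**Figure D5:**
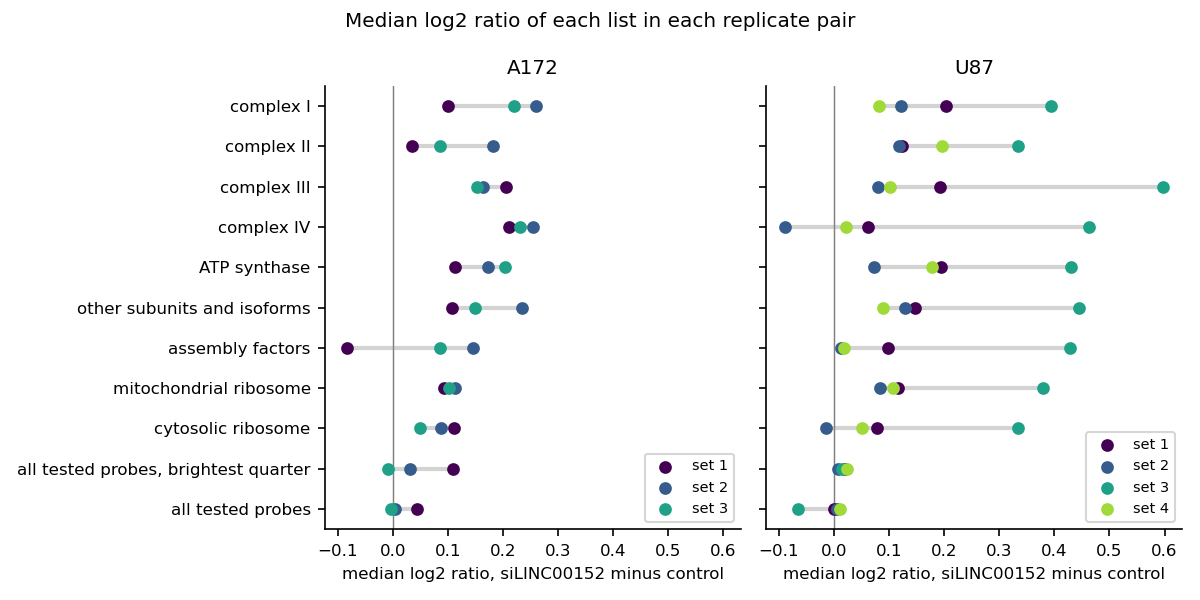
Points are the median log2 ratio of siLINC00152 to control (x axis) over the tested genes of a list, or over all tested probes (y axis), for each set (colour), with a grey bar from the lowest to the highest set. Set 3 of U87 is the highest set for all 9 gene lists, from 0.33 to 0.60, while all tested probes lie at -0.066 in it.

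Among regulators of these genes, PPARGC1A and NRF1 were too dim to be tested in either line, and GABPA, a factor of the ETS family, was tested in A172 only, at -0.073 (SE 0.68). TFAM, which packs and transcribes mitochondrial DNA, gave 0.083 in A172 (SE 0.30) and -0.020 in U87 (SE 0.26), or 0.032 without set 3. The nuclear receptor ESRRA gave -0.072 in A172 (SE 0.63) and 0.18 in U87 (SE 0.55), which was 0.0071 without set 3. PPARGC1B, a coactivator with a dim probe, well above background on 5 of 6 A172 arrays, had 0.74 in A172 (SE 0.33, adjusted p = 1.00). It was called there with the replicate block only (adjusted p = 0.133), where 3.26% of all probes were called, and its U87 value was 0.032 (SE 0.29), or 0.12 without set 3.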

How the data were processed

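Total RNA of 14 cultures was measured on Agilent arrays. The authors deposited an intensity for each spot (Feature Extraction 11.5.1.1) and log2 values made comparable between arrays. Here log2 of the processed intensity was taken relative to the 75th percentile of an array's 58717 non-control spots, without spots marked non-uniform or outlying, and averaged by probe. A probe was tested in a line if at least 0.5 of its spots were well above background on 3 arrays of a group. One limma 3.58.1 model (R 4.3.3) of 4 group means was fitted, with Benjamini-Hochberg adjustment within each line, and the code was tested on simulated data.

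Pairs follow the set numbers of the labels and were checked by correlating deviations from group means. Same numbers gave 0.792, 0.794 and 0.675 in A172 and 0.373, 0.569, 0.857 and 0.864 in U87. Different numbers stayed below these except between U87 sets 1 and 2, where 0.403 and 0.411 exceed the 0.373 of set 1. The replicate block was an alternative, beside other background correction, normalization, filters and replicates left out. Named genes are those of complex II, the extremes of the other complexes among members on one side in every pair, and others said to be chosen after their values were seen. Members and lists were chosen with earlier results of these data known, and the motif letters after the data were seen. Normexp (offset 50) used the median signal. Subunits coded by mitochondrial DNA were left out, since no probe could be named for them.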

Additional observations from a re-analysis of the deposited data

Results flagged for a closer look

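A value was singled out when it lay far from the other 3 arrays of its group, by Dixon's criterion. Only the U87 groups of 4 arrays were examined this way, for 16 named genes and for the medians of the complexes and of all members, 42 groups of values in all, and chance singles out about 1 in 20 groups. Outside complex II these genes were named as extremes of the same data, so that rate need not hold for them. UQCRFS1, for instance, was named for the highest U87 value of complex III. SDHB read 1.30 on the control array of set 3 and 1.88 on the siLINC00152 array of set 3, far below the other U87 arrays. UQCRFS1 read -2.89 on the control array of set 3 and -1.03 on the siLINC00152 array of set 3, and its control spot was not well above background. The median deviation of the complex III members on the control array of set 3 was -0.77. SDHD read -4.57 on the control array of set 4, where its spot was not well above background. The causes were not tested. Of the 6 values, 5 come from set 3 of U87, the dimmest pair. Other members were not examined, and NDUFB3 and NDUFV2 are also low on the control array of set 3, at -2.01 and 1.52.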

How the results depend on the processing

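A median counts as moved when it differs by at least the standard deviation of its pair medians, and a count when it differs more than 1.5 times. By this rule 318 alternatives kept a count or median and 36 moved it. The spread of the U87 pairs is wide, so even complex IV without U87 set 3, 0.0060 in place of 0.13, counts as kept. For single genes 595 kept the direction and 25 reversed it. The cause was not tested, and every alternative gave a value. The replicate block by itself changed no call of a member. Alternatives that join the block with another choice were added after seeing the data, and some called 1 member probe. In U87 this was a second probe of NDUFB5, with quantile normalization, with the authors' log2 values and without U87 set 3 (1 probe each). In A172 it was NDUFS3, without U87 set 3 (1 probe). Without the block every alternative called 0 members.

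In A172 the complex III and complex IV medians were 0.137 and 0.191 with normexp background correction, 0.144 and 0.195 with quantile normalization, 0.161 and 0.208 when scaled on probes detected on all arrays, and 0.141 and 0.198 with the deposited values. With the mean over all probes of a gene complex III was 0.161, and with probes well above background on every array complex IV was 0.204 in A172 and complex II 0.163 in U87. SDHD in A172 turned to -0.0125 with normexp and -0.0146 with scaling on detected probes.

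Leaving out a pair or an array gave these ranges in A172: complex II -0.044 to 0.17, complex III 0.11 to 0.26, complex IV 0.072 to 0.34, all members 0.099 to 0.24, members above control in every pair 29 to 41 (41 without set 1), COX5B -0.067 to 0.38, SDHB -0.33 to 0.12, SDHC -0.0036 to 0.31, SDHD -0.092 to 0.19, UQCRC1 -0.29 to 0.095 and UQCRFS1 -0.48 to 0.13. In U87 they were complex II 0.16 to 0.37, complex III -0.058 to 0.46, COX5B -0.21 to 0.25, SDHB -0.32 to 0.51, SDHD -0.0087 to 2.17, UQCRFS1 -0.18 to 1.02 and UQCRH -0.058 to 0.13.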

Other observations

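The ribosomal genes give a second view of the sets. The 76 mitochondrial ribosome genes tested in A172 had a median log2 fold change of 0.079 and the 72 tested in U87 0.17 (0.11 without set 3), and the cytosolic ribosome genes, 84 and 83, had 0.068 and 0.099 (0.029 without set 3). With limma 0 of them were called in either line. At an unadjusted p under 0.05 there were 1 above and 1 below control in A172 and 2 above control in U87, all of the mitochondrial ribosome, against 2.28% of all probes in A172 and 2.3% in U87. With the replicate block, which called 3.26% of all probes in A172 and 4.18% in U87, MRPL36 (0.65, adjusted p = 0.0731) and MRPS34 (0.51, adjusted p = 0.157) were called above control and MRPS27 (-0.51, adjusted p = 0.124) below control in A172, and MRPS6 (0.52, adjusted p = 0.126) and MRPS7 (0.56, adjusted p = 0.0802) above control in U87, with 0.42 and 0.46 without set 3. On the control array of U87 set 3 the median deviation was -0.38 for the mitochondrial and -0.42 for the cytosolic ribosome genes, and -0.66 for the ATP synthase genes. The low level of that array was thus also seen in these lists.

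Of the genes known to be deleted in these lines, CDKN2A had a probe well above background on all arrays, CDKN2B on none, and MTAP on 4 A172 arrays and 0 U87 arrays. CD44, a mesenchymal marker, stood at -1.13 in A172 (SE 0.56), called only with the replicate block (adjusted p = 0.00807), and 0.12 in U87 (SE 0.48), or 0.070 without set 3.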
